A study of Oryza sativa with 18 samples.

Results

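The genes described here are 9 rice regulators of crown root formation and of the root meristem: QHB, OsSCR1, OsSHR1, CRL1, CRL5, WOX11, OsPLT4, OsGRF1 and OsWOX6. They were chosen by name, as known regulators and with earlier results of these data known, and found in the deposited table by their MSU locus identifiers, 9 of the 64687 genes listed there. They lie on chromosomes 1 (QHB), 2 (OsGRF1), 3 (CRL1 and OsWOX6), 4 (OsPLT4), 7 (CRL5, OsSHR1 and WOX11) and 11 (OsSCR1). CRL5 was listed at 0 in every library, so 8 of the 9 were among the 30907 genes with enough counts to be tested.

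The tips of crown roots of rice (cultivar Kitaake) were profiled by RNA-seq, with 3 libraries in each of 6 groups and 18 in all. The groups are oscoi2 plants, oscoi1ab plants and WT plants, each transferred for 6 h to liquid medium with 5 µM jasmonate (JA) or with the solvent DMSO (mock). Line oscoi2 carries CRISPR/Cas9 deletions in OsCOI2, line oscoi1ab carries small deletions in both OsCOI1a and OsCOI1b, and WT is the unedited cultivar that both lines were made from. Each library held tips of about 1 cm cut from 20 to 24 plants, and the 3 libraries of a group are described as independent biological samples. Each edited genotype is represented by 1 homozygous T3 line, so an effect of the edited gene and one of that particular line cannot be told apart. The pooled tips hold many cell types.

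JA acts after conjugation to isoleucine, which lets an F-box receptor of the COI type bind JAZ repressors and send them for destruction, so that the transcription factors held by the JAZ proteins become active. In roots, JA is known to restrain elongation and cell division in the meristem. Rice crown roots arise from the stem base under auxin control through CRL1 and CRL5, WOX11 promotes their emergence and growth, and the growing tip keeps its stem cells through QHB in the quiescent centre, the SHR and SCR factors in the ground tissue and factors of the PLETHORA (PLT) type.

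The guides that define the edited lines are shown because every comparison between lines rests on them. They are written 5′ to 3′ as the study lists them, with the protospacer in lower case and the NGG motif next to it (PAM) in capitals.
oscoi1a_gRNA: tgctggaggagcattctacgNGG
oscoi1b_gRNA: ccacatgaccgaactcacagNGG
oscoi2_gRNA1: ttcgacaattgcgcacaaggNGG
oscoi2_gRNA2: atattacaagactttgccggNGG
The first guide targets OsCOI1a, the second OsCOI1b, and the last pair OsCOI2.

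Library totals lay between 99657931 and 113672521 estimated counts. Levels below are counts scaled to a common library total (CPM) after TMM scaling, and levels of different genes are not compared, since they depend on gene length. A gene was called where its FDR, the Benjamini-Hochberg adjusted p of edgeR's quasi-likelihood test over the 30907 genes, was under 0.01 and its log2FC at least 1 in either direction. QHB, OsSHR1 and OsSCR1, which were also taken as genes of root tissue, had counts in all 18 libraries. The locus set as the general root marker, LOC_Os02g44310, reached 1286 CPM or more in each library. Its JA libraries all lay below its mock libraries in every line, with a log2FC of JA over mock of -0.55 in oscoi2, -1.10 in oscoi1ab and -0.92 in WT, called in oscoi1ab alone. Of the 3 loci set as shoot markers, LOC_Os03g51690 was at 0 in all 18 libraries, and the summed level of the list was 2.24 to 4.597 CPM after JA and 3.12 to 13.9 CPM under mock in oscoi2, 1.90 to 3.25 and 14.1 to 37.0 CPM in oscoi1ab, and 2.94 to 4.72 and 5.67 to 35.1 CPM in WT. The 5 dividing-cell markers were summed likewise to 164.3 to 226.4 CPM after JA and 231.3 to 266.5 CPM under mock in oscoi2, 93.2 to 118.7 and 168.1 to 202.8 CPM in oscoi1ab, and 105.4 to 142.5 and 197.8 to 211.6 CPM in WT. All 5 dividing-cell markers and both shoot loci with counts had lower levels after JA in each line too, and the part of these 3 marker lists in the changes below was not tested.

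Among the 9 regulators, JA was followed by changes in 4. The homeobox genes WOX11 and OsWOX6 rose, and OsPLT4 and OsGRF1 fell, while QHB, OsSHR1, OsSCR1 and CRL1 passed the test in no comparison. In WT plants 4 of the 8 tested regulators were called, 2 up and 2 down, where 14% of all tested genes were called, 7.48% up and 6.56% down. In oscoi1ab plants 3 of 8 were called, against 15.6% of all genes, and in oscoi2 plants 1 of 8, against 4.46% of all genes. Since the regulators were chosen with earlier results of these data known, a share above that of all genes is not read as an excess, here or below. As the tips are bulk samples, fewer cells of a type and less RNA per cell cannot be told apart in any of these values.

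WOX11 (LOC_Os07g48560), a WUSCHEL-related homeobox factor that promotes crown root emergence and growth, had the largest response. In oscoi2 plants its level was 3.25, 2.48 and 1.82 CPM after JA, against 0.694, 0.673 and 0.801 CPM under mock. In oscoi1ab plants it was 13.4, 14.5 and 18.6 CPM after JA, against 0.639, 1.26 and 1.01 CPM under mock. In WT plants it was 13.2, 18.6 and 24.0 CPM after JA, against 0.354, 1.01 and 0.816 CPM under mock. All JA libraries lay above all mock libraries, and within JA the 3 oscoi2 libraries lay below every oscoi1ab and WT library, whereas the 9 mock libraries overlapped.

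The rise of WOX11 had a log2FC of 1.80 ± 0.35 (SE) in oscoi2 (3.48-fold, FDR = 0.00193), of 4.0 ± 0.37 in oscoi1ab (16.0-fold, FDR = 3.78e-07) and of 4.68 ± 0.38 in WT (25.5-fold, FDR = 1.15e-07). All 3 values were past the limits. Without oscoi2 mock library 1 the value in oscoi2 was 1.77 with an FDR of 0.0114, and without oscoi2 JA library 1 it was 1.57 with an FDR of 0.0101, both outside the limit. The oscoi2 call was also lost by limma-voom (1.76, FDR = 0.031) and with only the groups compared in the fit (1.80, FDR = 0.0113). Ordered by mean level, the groups ran from WT JA (18.6 ± 5.42 CPM, SD, n = 3) through oscoi1ab JA (15.5 ± 2.75) and oscoi2 JA (2.52 ± 0.715) to the mock groups of oscoi1ab (0.9702 ± 0.314), WT (0.727 ± 0.337) and oscoi2 (0.723 ± 0.0685). The neighbours oscoi1ab JA and WT JA did not differ beyond their spread, nor did the mock groups among themselves.

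OsWOX6 (LOC_Os03g20910) is a second WUSCHEL-related homeobox factor, known together with WOX11 from the control of tiller angle. In oscoi2 plants it had 3.78, 5.31 and 3.97 CPM after JA, against 3.42, 6.11 and 3.72 CPM under mock. Its level in oscoi1ab plants was 14.2, 10.4 and 10.9 CPM after JA, against 3.69, 6.04 and 5.58 CPM under mock. Its level in WT plants was 10.03, 12.3 and 15.3 CPM after JA, against 5.43, 6.32 and 6.70 CPM under mock. The JA libraries of oscoi1ab and WT were higher than all other libraries of the gene, and the 2 groups of oscoi2 overlapped.

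OsWOX6 rose by a log2FC of 1.21 ± 0.25 in oscoi1ab (2.32-fold, FDR = 0.00102) and of 1.03 ± 0.25 in WT (2.04-fold, FDR = 0.00367). In oscoi2 the log2FC was -0.02 ± 0.25, with a 95% interval of -0.54 to 0.50 (FDR = 0.972). The WT value lies close to the fold limit. It left the call at 0.95, 1.05 and 0.86 without WT mock library 1, WT mock library 2 and WT JA library 3, with FDRs of 0.0195, 0.0121 and 0.0229. With scaling by library size only, the rise was 0.85 in oscoi1ab and 0.68 in WT (FDR = 0.0109 and 0.0354), neither of them called.

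**Figure D1:**
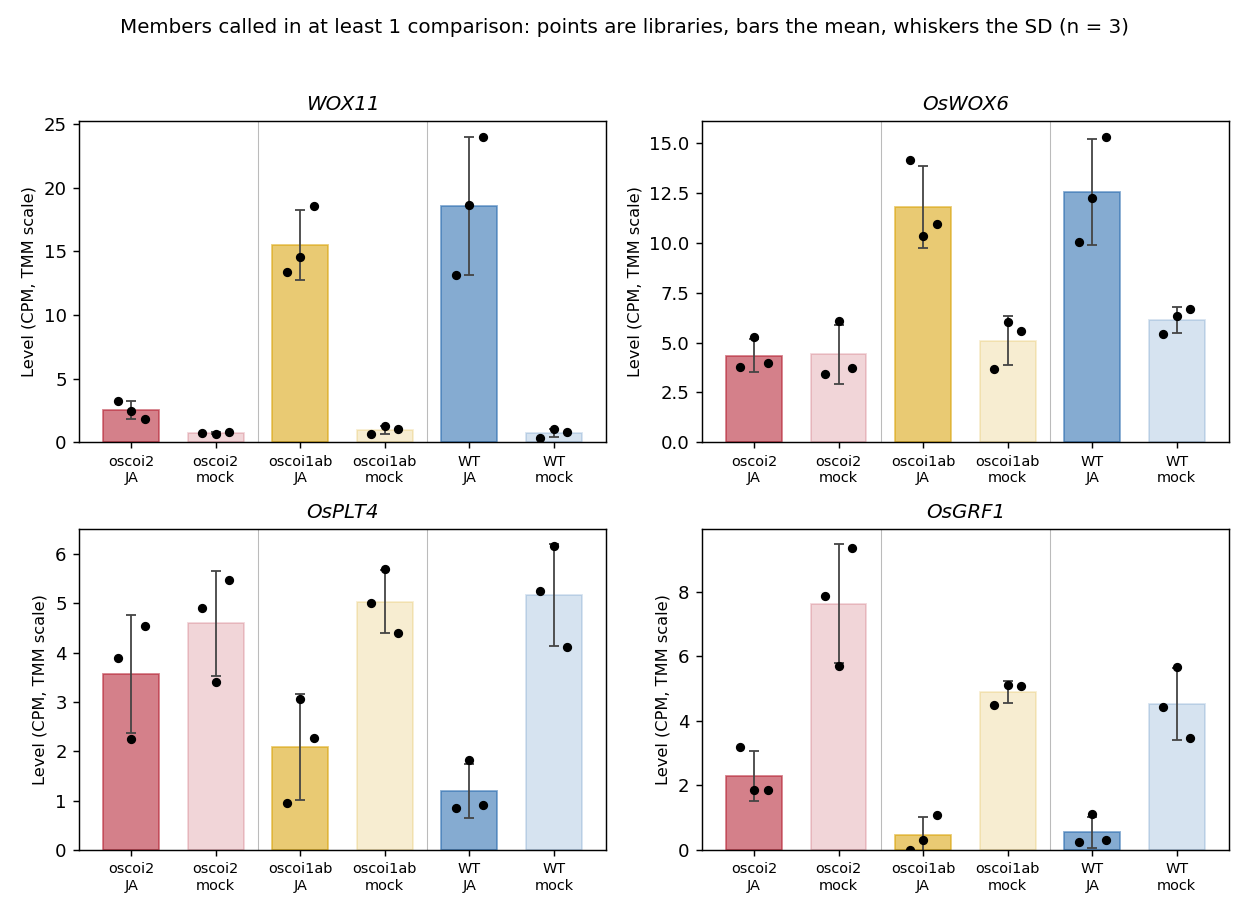
Level of WOX11, OsWOX6, OsPLT4 and OsGRF1 (CPM on the TMM scale, linear axis from 0) in the 6 groups. Points are single libraries, bars the group mean and whiskers the SD of 3 libraries; WOX11 after JA averaged 2.52 CPM in oscoi2, 15.5 CPM in oscoi1ab and 18.6 CPM in WT, and OsPLT4 and OsGRF1 averaged less after JA than under mock in each line.

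OsPLT4 (LOC_Os04g42570) encodes an AP2-type factor of the PLETHORA group, whose Arabidopsis members maintain the root stem cells in a dose-dependent way. In oscoi2 plants it had 3.90, 2.25 and 4.55 CPM after JA, against 4.91, 3.41 and 5.48 CPM under mock. The oscoi1ab libraries had 0.939, 3.06 and 2.27 CPM after JA, against 5.01, 5.69 and 4.41 CPM under mock. The WT libraries had 0.847, 1.83 and 0.906 CPM after JA, against 5.25, 6.16 and 4.11 CPM under mock. The JA libraries lay below the mock libraries in WT and in oscoi1ab, with the second library highest in both JA groups, and the treatments overlapped in oscoi2.

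OsPLT4 fell in WT with a log2FC of -2.11 ± 0.40 (4.33-fold, FDR = 0.000609), a call kept in each of the 13 other settings and after leaving out any of the 18 libraries. In oscoi1ab its log2FC was -1.27 ± 0.39 (FDR = 0.0169), outside the FDR limit. Without oscoi1ab JA library 2 that value was -1.65 with an FDR of 0.00745, inside the limit. It was called too by limma-voom (-1.41, FDR = 0.00695), DESeq2 (-1.28, FDR = 0.00481), the likelihood ratio test (-1.27, FDR = 0.00673) and with library size only (-1.62, FDR = 0.00317). In oscoi2 the log2FC was -0.37 ± 0.38, with a 95% interval of -1.18 to 0.45 (FDR = 0.58). The responses of the lines thus ran from oscoi2 through oscoi1ab to WT in size. No pair of them had a called difference, as given with the interaction contrasts below.

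OsGRF1 (LOC_Os02g53690), named rhd1 in the study's tables too, belongs to the growth-regulating factors, which promote cell proliferation in growing organs together with GIF coactivators. In oscoi2 plants it had 3.20, 1.86 and 1.85 CPM after JA, against 7.88, 5.70 and 9.36 CPM under mock. Among oscoi1ab plants the levels were 0, 0.313 and 1.09 CPM after JA, against 4.50, 5.12 and 5.09 CPM under mock. Among WT plants the levels were 0.227, 1.098 and 0.291 CPM after JA, against 4.43, 5.68 and 3.47 CPM under mock. Every JA library lay below every mock library of its line, and the 3 oscoi2 libraries after JA lay above the 6 other JA libraries.

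The WT libraries after JA held 22, 104 and 26 estimated counts of OsGRF1 and those of oscoi1ab 0, 30 and 100. About 3.71 estimated counts are taken here as 1 read pair, so these levels rest on few read pairs and are the least certain of the set. OsGRF1 fell in oscoi1ab with a log2FC of -3.39 ± 0.84 (FDR = 0.0042) and in WT with one of -3.07 ± 0.82 (8.38-fold, FDR = 0.00785). In oscoi2 its log2FC was -1.73 ± 0.77 (FDR = 0.139), not called, but limma-voom (-1.75, FDR = 0.00273) and the fit of only the groups compared (-1.73, FDR = 0.00911) did call it there. The size rests on single libraries: without oscoi1ab JA library 3 the value in oscoi1ab was -4.95 (FDR = 0.000757), and without WT JA library 2 that in WT was -4.12 (FDR = 0.00364). The WT call was lost without any 1 of the 3 WT mock, 3 oscoi1ab mock or 3 oscoi2 mock libraries, or of WT JA libraries 1 and 3, with log2FC between -3.23 and -2.70 and FDRs between 0.0104 and 0.0386. The call in oscoi1ab was lost without oscoi1ab mock library 2 (-3.36, FDR = 0.0104) or oscoi1ab JA library 2 (-3.17, FDR = 0.021). Robust estimation lost the WT call (FDR = 0.0113), and the fit of only the groups compared lost that in oscoi1ab (FDR = 0.0324).

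The genes of the stem cell niche QHB, OsSHR1 and OsSCR1 were called in no comparison. QHB (LOC_Os01g63510), the homeobox gene expressed in the quiescent centre, had 3.45, 4.62 and 3.77 CPM after JA and 5.35, 3.76 and 3.99 CPM under mock in oscoi2 plants. In oscoi1ab plants it had 2.83, 4.46 and 5.01 CPM after JA and 4.0, 4.58 and 3.99 CPM under mock. In WT plants it had 4.64, 3.93 and 6.11 CPM after JA and 5.99, 4.84 and 5.72 CPM under mock. Treatments overlapped in every line, and the log2FC of JA over mock was -0.15 in oscoi2 (95% interval -0.63 to 0.34), -0.03 in oscoi1ab (-0.52 to 0.45) and -0.17 in WT (-0.66 to 0.31).

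OsSHR1 (LOC_Os07g39820) belongs to the SHORT-ROOT type, a GRAS factor that in Arabidopsis moves out of the stele and activates SCARECROW in the layer around it. It had 21.7, 20.6 and 21.4 CPM after JA and 21.4, 21.6 and 29.5 CPM under mock in oscoi2 plants. Levels in oscoi1ab plants were 17.7, 25.6 and 23.9 CPM after JA and 26.4, 29.3 and 24.1 CPM under mock. Levels in WT plants were 21.7, 27.6 and 19.4 CPM after JA and 27.7, 25.8 and 21.7 CPM under mock. The groups overlapped in each line, and the log2FC was -0.19 in oscoi2 (95% interval -0.54 to 0.17), -0.25 in oscoi1ab (-0.60 to 0.11) and -0.13 in WT (-0.48 to 0.22).

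OsSCR1 (LOC_Os11g03110), its SCARECROW-type partner, had 8.81, 7.53 and 10.1 CPM after JA and 11.7, 11.7 and 11.8 CPM under mock in oscoi2 plants. In oscoi1ab plants it had 4.86, 11.3 and 9.38 CPM after JA and 9.10, 12.0 and 9.79 CPM under mock. In WT plants it had 9.95, 11.02 and 10.5 CPM after JA and 10.5, 11.9 and 12.8 CPM under mock. In oscoi2 the JA libraries all lay below the mock libraries, where 33.2% of all tested genes had such a gap in 1 direction or the other, and the log2FC of -0.41 ± 0.22 was not called (FDR = 0.225). The values were -0.28 ± 0.22 in oscoi1ab and -0.16 ± 0.22 in WT. A near-identical gene, OsSCR2, is listed by RefSeq on chromosome 12, and reads of the pair may have been shared. LOC_Os12g02870, the locus taken for it here, had log2FCs of -0.14 in oscoi2, 0.07 in oscoi1ab and 0.09 in WT, with none called.

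CRL1 (LOC_Os03g05510), an auxin-induced LBD factor needed for crown root initiation, had 11.51, 7.35 and 10.8 CPM after JA and 11.6, 11.8 and 14.9 CPM under mock in oscoi2 plants. For oscoi1ab plants the levels were 7.39, 13.0 and 10.7 CPM after JA and 9.14, 20.0 and 11.8 CPM under mock. For WT plants the levels were 13.1, 14.9 and 8.58 CPM after JA and 10.7, 13.7 and 9.98 CPM under mock. In oscoi2 the JA libraries lay just below the mock libraries, and elsewhere the treatments overlapped. The log2FC was -0.37 in oscoi2 (95% interval -0.97 to 0.23), -0.40 in oscoi1ab (-1.004 to 0.20) and 0.09 in WT (-0.51 to 0.69), the last of which was -0.26 when scaled by library size only.

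CRL5 (LOC_Os07g03250), an AP2 factor that acts with auxin in crown root initiation, was listed at 0 in all 18 libraries. A count of 0 allows up to 3 read pairs per library, which is about 11.1 estimated counts or 0.104 CPM at the median library total, and this limit covers counting error only. Whether the gene was transcribed below that level was not detectable at this depth. Over QHB, OsSHR1, OsSCR1 and CRL1 together, the 12 log2FCs of JA over mock lay between -0.41 and 0.09, the lowest FDR was 0.225, and the intervals reached no further than -1.004 and 0.69. A change of 2-fold or more upward was thus outside every interval, and one downward was outside all but that of CRL1 in oscoi1ab.

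**Figure D2:**
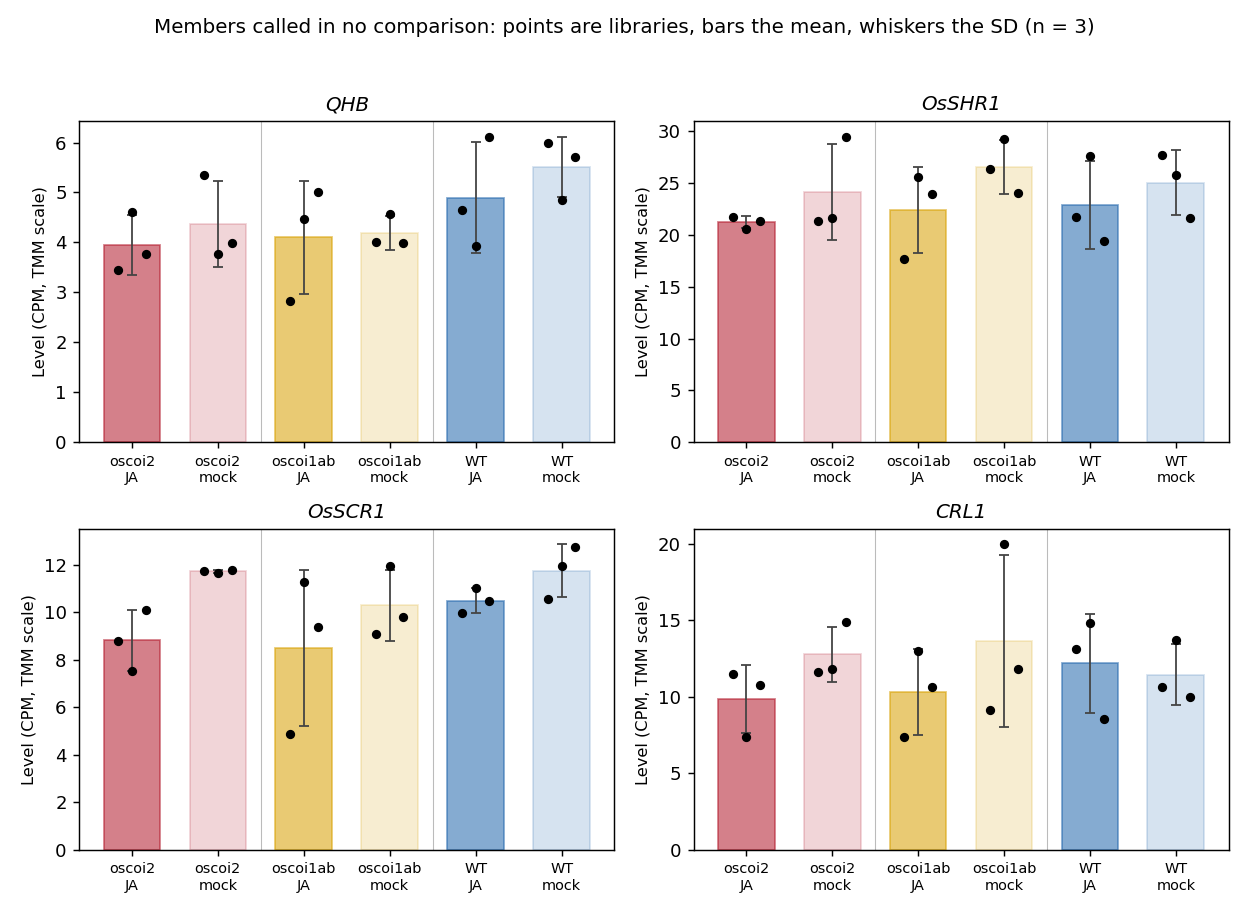
Level of QHB, OsSHR1, OsSCR1 and CRL1 (CPM on the TMM scale, linear axis from 0) in the 6 groups, with single libraries as points, the group mean as bars and the SD of 3 libraries as whiskers. JA and mock libraries overlapped in most lines, and QHB had 2.83 to 6.11 CPM over all 18 libraries.

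Set side by side, the JA responses of the 8 tested regulators ranged from a called rise of 4.68 to a called fall of -3.39 on the log2 scale, with large values that were not called for OsGRF1 in oscoi2 (-1.73) and OsPLT4 in oscoi1ab (-1.27). JA and mock libraries did not overlap for 4 of the 8 in each line, where this held for 33.2% of all tested genes in oscoi2, 51.7% in oscoi1ab and 48.3% in WT. WOX11 was called in all lines, OsWOX6 and OsGRF1 in oscoi1ab and WT, and OsPLT4 in WT, with the same sign wherever a gene was called. The median log2FC of the 8 was -0.28 in oscoi2, -0.26 in oscoi1ab and -0.15 in WT, beside -0.01, -0.03 and -0.05 over all tested genes. With library size only, the median of all genes moved by -0.15, -0.36 and -0.35 in the 3 lines, and every called value of the 8 kept its direction.

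**Figure D3:**
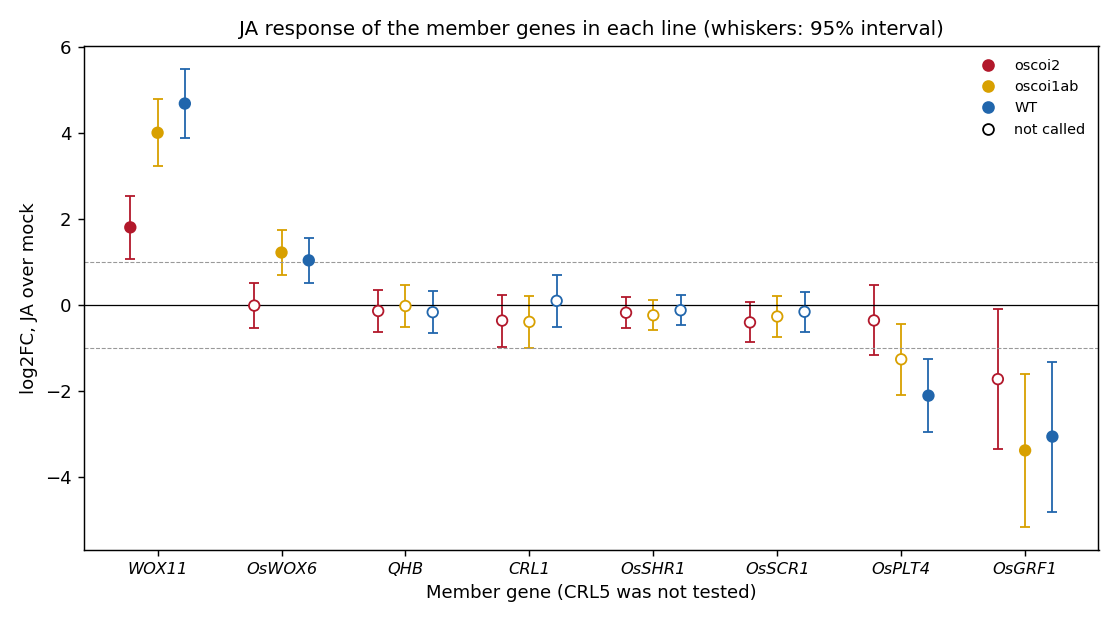
log2FC of JA over mock for the 8 tested regulators in oscoi2, oscoi1ab and WT plants, with 95% intervals as whiskers, filled points for called values and dashed lines at a 2-fold change. WOX11 lay at 1.80, 4.0 and 4.68 in the 3 lines, while QHB, CRL1, OsSHR1 and OsSCR1 lay between -0.41 and 0.09.

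Without JA no regulator was called between an edited line and WT. Under mock, edgeR called 0 of 8 in oscoi2 plants against WT plants, where 0.375% of all genes were called, and 0 of 8 in oscoi1ab plants against WT plants, where 0.162% were. None of the 16 values had an unadjusted p under 0.05, where 22.7% of all genes did for oscoi2 and 4.43% for oscoi1ab, and the likelihood ratio test, DESeq2 and limma-voom called none either. OsGRF1 had the largest difference, with all oscoi2 libraries above all WT libraries under mock and a log2FC of 0.76 (95% interval -0.83 to 2.34, FDR = 0.614), where 26.9% of all genes lay apart in that comparison. OsWOX6 had a log2FC of -0.48 in oscoi2 against WT (-0.999 to 0.05, FDR = 0.268), with overlapping libraries. QHB was lower in all oscoi1ab libraries than in all WT libraries, with a log2FC of -0.40 (-0.88 to 0.09, FDR = 1), where 10.2% of all genes lay apart.

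After JA, 4 of the 8 regulators had oscoi2 and WT libraries that lay apart, where 32% of all genes did. In oscoi2 plants against WT plants 2 of 8 were called, both lower, where 3.92% of all genes were called and 2.22% were lower. WOX11 was lower by a log2FC of -2.89 ± 0.35 (7.39-fold, FDR = 4.96e-05) and OsWOX6 by -1.53 ± 0.25 (2.88-fold, FDR = 0.000696), and both calls held in each of the 13 other settings and without any 1 library. OsPLT4 had a log2FC of 1.58 ± 0.40 (FDR = 0.0128) and OsGRF1 of 2.09 ± 0.80 (FDR = 0.0885). All oscoi2 libraries were above all WT libraries for both, but neither was called by the quasi-likelihood test. OsPLT4 was called by the likelihood ratio test (1.58, FDR = 0.00192), DESeq2 (1.55, FDR = 0.00149) and with library size only (1.72, FDR = 0.00672). Its value also passed the limit without WT JA library 2 (2.02, FDR = 0.00614), oscoi1ab JA library 1 (1.58, FDR = 0.00458) or oscoi2 JA library 2 (1.82, FDR = 0.00837).

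In oscoi1ab plants against WT plants after JA, edgeR called 0 of 8, where 0.162% of all genes were called. No regulator had an unadjusted p under 0.05, where 5.6% of all genes did, and none was called by the other tools. WOX11 had a log2FC of -0.26 (95% interval -0.95 to 0.42), OsWOX6 of -0.09 (-0.60 to 0.43) and OsGRF1 of -0.21 (-1.92 to 1.51). OsPLT4 had the largest value, 0.81 (-0.03 to 1.64, FDR = 0.916), and its libraries overlapped between the lines, as did those of the other 7, where 9.18% of all genes lay apart. The intervals of oscoi2 against WT were -3.62 to -2.15 for WOX11 and -2.06 to -0.997 for OsWOX6, apart from those of oscoi1ab. They were 0.74 to 2.42 for OsPLT4 and 0.40 to 3.79 for OsGRF1, which overlapped those of oscoi1ab. Both comparisons share the WT libraries, and oscoi2 was not tested against oscoi1ab after JA.

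Whether the response to JA itself differed was tested with interaction contrasts, the log2FC of JA over mock in 1 line minus that in another. For oscoi2 minus WT 1 of 8 regulators was called, WOX11, where 2.94% of all genes were called. Its difference was -2.88 ± 0.48 (7.35-fold smaller, FDR = 0.00157), called after leaving out any of the 18 libraries but not by limma-voom (-2.99, FDR = 0.0174), with FDRs between 3.47e-07 and 0.0174 over the 13 other settings. The differences for OsPLT4 (1.75 ± 0.55, FDR = 0.0574), OsWOX6 (-1.05 ± 0.35, FDR = 0.0704) and OsGRF1 (1.34 ± 1.08, FDR = 0.519) were not called. Their 95% intervals, not adjusted for the number of genes, were 0.58 to 2.91 for OsPLT4, -1.79 to -0.31 for OsWOX6 and -0.95 to 3.62 for OsGRF1. Only that of OsGRF1 held 0. For these 3 genes a response called in WT and not in oscoi2 is therefore no called difference between the lines.

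For oscoi2 minus oscoi1ab 1 of 8 was called, again WOX11, where 3.37% of all genes were called. Its difference was -2.20 ± 0.48 (4.59-fold smaller, FDR = 0.00726), and OsWOX6 followed at -1.23 ± 0.35 (FDR = 0.0327). The WOX11 call was lost without any 1 of the 3 oscoi1ab JA, 3 oscoi2 mock, oscoi1ab mock 1 and 3, oscoi2 JA 2 and 3, or WT JA 2 libraries, at values between -2.30 and -1.97 and FDRs between 0.0105 and 0.0206, and by limma-voom (-2.29, FDR = 0.0421) and with library size only (-2.0, FDR = 0.0124). DESeq2 called that of OsWOX6 as well (-1.24, FDR = 0.00992). For oscoi1ab minus WT edgeR called 0 of 30907 genes (0%), with 903 (2.92%) at an unadjusted p under 0.05, none of them among the 8 regulators, and 21, 10 and 0 genes were called by DESeq2, the likelihood ratio test and limma-voom. WOX11 had a difference of -0.68 (95% interval -1.68 to 0.32) and OsPLT4 of 0.85 (-0.32 to 2.01).

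Relatives of the regulators were read from lists of other genes of the same families and of crown root formation. Of the 8 further PLT-type loci 7 were tested, and edgeR called 1 up and 0 down in oscoi2, 0 in oscoi1ab, and 1 up and 0 down in WT, with 3, 4 and 4 at an unadjusted p under 0.05. Of all tested genes 4.46%, 15.6% and 14% were called in these lines and 30%, 45.5% and 44.7% had such a p, and 1 call among 7 loci is not read as more than this background. The other tools were fitted to all genes too, but their values for single genes were read for the 9 regulators only. The median log2FC of the list was 0.43 in oscoi2, 0.70 in oscoi1ab and 0.61 in WT, beside medians near 0 over all genes, while OsPLT4 was called down in WT. The called locus in WT was LOC_Os03g19900, annotated as similar to an ANT-like protein, with 1.72, 1.17 and 0.671 CPM after JA against 0.257, 0.448 and 0.350 CPM under mock (log2FC 1.75 ± 0.48, FDR = 0.00924). The called locus in oscoi2 was OsPLT1 (1.33 ± 0.18, FDR = 9.02e-05), named after its values were seen. It had 0.70 in both oscoi1ab (FDR = 0.00444) and WT (FDR = 0.00503), under the fold limit only. OsPLT1 averaged 26.15 CPM under mock and 65.9 CPM after JA in oscoi2. It averaged 37.0 and 60.3 CPM in oscoi1ab, and 35.8 and 58.1 CPM in WT. Under mock, 5 of these 7 loci had an unadjusted p under 0.05 for oscoi2 against WT, where 22.7% of all genes did. None was called, and the list median log2FC there was -0.44.

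Of 14 further GRF and GIF loci 12 were tested, and edgeR called 0 in oscoi2, 0 up and 2 down in oscoi1ab, and 0 up and 2 down in WT, with 4, 6 and 4 at an unadjusted p under 0.05. The share called in oscoi1ab and WT was near the 15.6% and 14% of all genes. OsGRF9 had 2.67, 2.81 and 2.16 CPM after JA in WT plants against 7.59, 6.48 and 8.11 CPM under mock, a log2FC of -1.54 ± 0.18 (FDR = 4.87e-06). LOC_Os03g52320 had 0.589, 0.654 and 0.548 CPM after JA against 3.54, 4.45 and 3.33 CPM under mock in the same plants, a log2FC of -2.66 ± 0.53 (FDR = 0.000847). The 2 calls in oscoi1ab were LOC_Os03g52320 (-2.28 ± 0.52, FDR = 0.00238) and OsGRF7 (-1.76 ± 0.37, FDR = 0.00135). OsGRF7 was named after its values were seen, and was at -0.99 ± 0.36 in WT (FDR = 0.0428), not called. OsGRF9 was at -0.97 ± 0.17 in oscoi1ab (FDR = 0.000337), under the fold limit. The median log2FC of the list was -0.25 in oscoi2, -0.47 in oscoi1ab and -0.72 in WT. OsGRF9 was called in the contrast of oscoi2 minus WT too (1.12 ± 0.25, FDR = 0.00853), where OsGRF1 was not.

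Of 11 further WOX loci only 2 passed the count minimum, and neither had an unadjusted p under 0.05 by edgeR in a JA response. LOC_Os01g60270 had log2FCs of -0.20 in oscoi2, -0.07 in oscoi1ab and -0.33 in WT. WOX11, OsWOX6 and QHB were therefore 3 of the 5 WOX genes measured. Of the 3 SHR and SCR relatives, OsGRAS35, annotated as similar to SCARECROW, fell in WT (-1.05 ± 0.22, FDR = 0.0015), and the list had no other call in a JA response. In oscoi1ab OsGRAS35 had a log2FC of -0.95 ± 0.22 (FDR = 0.003), missing the call by the fold limit only. In oscoi2 it had -0.15 ± 0.22 (FDR = 0.704).

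Of 9 further loci of the crown root pathway, all tested, 0 were called up and 1 down in oscoi2, and 1 up and 1 down in oscoi1ab and in WT, where 4.46%, 15.6% and 14% of all genes were called in the 3 lines. OsERF40, an ethylene response factor gene, had 46.0, 51.8 and 42.9 CPM after JA in WT plants against 9.89, 12.8 and 9.33 CPM under mock (log2FC 2.13 ± 0.19, FDR = 3.31e-07). Its log2FC was 0.77 ± 0.19 in oscoi2, and the difference of oscoi2 minus WT was called (-1.37 ± 0.26, FDR = 0.00366), as was that of WOX11. LOC_Os04g36070 fell in oscoi2 (-1.73 ± 0.38, FDR = 0.00508), in oscoi1ab (-1.74 ± 0.39, FDR = 0.00192) and in WT (-2.53 ± 0.40, FDR = 0.000111). The neighbour of CRL1 on chromosome 3, LOC_Os03g05500, had log2FCs of -0.02 in oscoi2, 0.66 in oscoi1ab and 0.60 in WT, with none called.

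The 5 dividing-cell markers stood lower after JA in each line, with a median log2FC of -0.27 in oscoi2, -0.68 in oscoi1ab and -0.64 in WT, and only LOC_Os02g56130 was called, in oscoi1ab (-1.08 ± 0.16, FDR = 5.22e-05). The markers lay between -0.56 and -0.22 in oscoi2, -1.08 and -0.30 in oscoi1ab, and -0.84 and -0.46 in WT. OsPLT4 was within their range in oscoi2 (-0.37) and below it in the other lines, and OsGRF1 was below it in all 3. QHB, OsSHR1, OsSCR1 and CRL1 lay above the range in WT (-0.17 to 0.09), while OsSCR1 (-0.41) and CRL1 (-0.37) were within it in oscoi2, as was CRL1 (-0.40) in oscoi1ab.

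**Figure D4:**
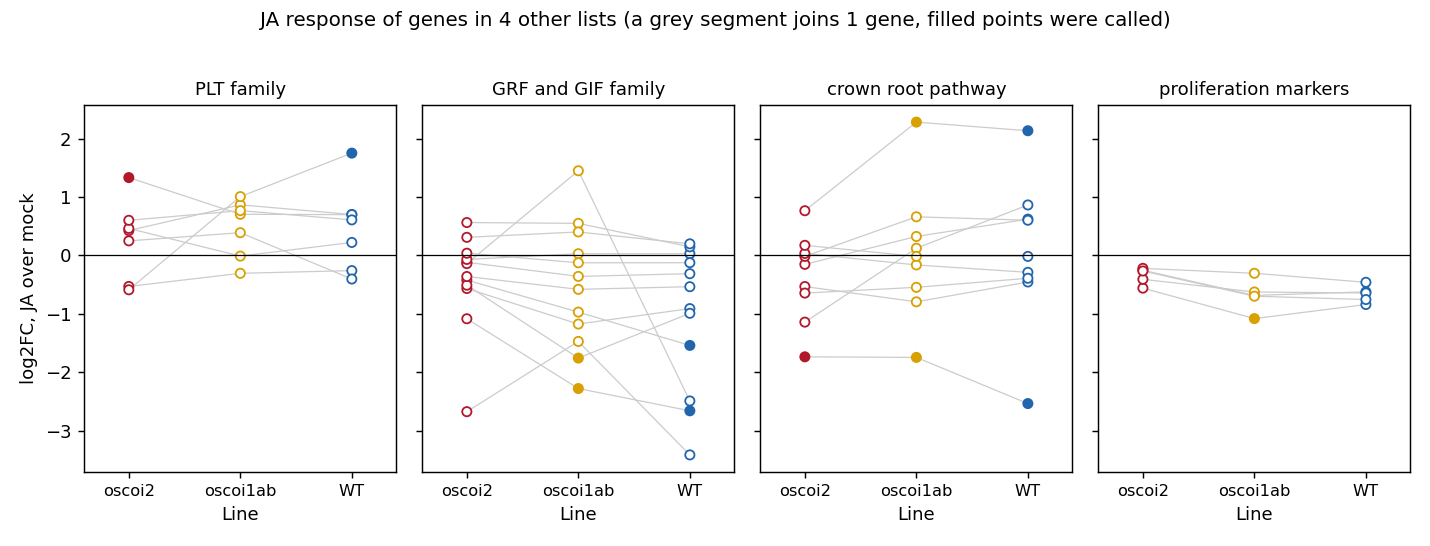
log2FC of JA over mock for the tested genes of 4 other lists in oscoi2, oscoi1ab and WT plants; each grey segment joins the values of 1 gene and filled points were called. In WT plants 1 of 7 PLT-type loci rose, 2 of 12 GRF and GIF loci fell, and the 5 dividing-cell markers lay between -0.84 and -0.46.

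Genes most like the responding regulators were sought by the Pearson correlation of log2 CPM over the 18 libraries, among 17611 tested genes with a mean of at least 5 CPM. These libraries share treatments and lines, so the value is only a measure of likeness. For WOX11 the nearest were LOC_Os03g51930, annotated with a DUF3054 domain (r = 0.99), and OsABCG22, annotated as similar to an ABC transporter (r = 0.986). OsABCG22 averaged 105.1 CPM after JA against 31.9 CPM under mock in oscoi2. It averaged 680.2 against 41.4 CPM in oscoi1ab and 612.3 against 32.3 CPM in WT. That oscoi2 was lowest after JA, as for WOX11, follows from how the gene was picked. The nearest to OsWOX6 were LOC_Os03g25400 (0.947) and LOC_Os02g48080 (0.943), those to OsPLT4 were LOC_Os08g36450 (0.937) and LOC_Os07g41740 (0.934), and those to OsGRF1 were LOC_Os03g13000 (0.948) and LOC_Os01g52660 (0.941), with no name in the tables used.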

How the data were processed

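The authors used CutAdapt for trimming, HISAT2 for mapping (MSU7 and RAP-DB references), StringTie for assembly and an in-house script for counting (versions not given in the sources used here). The deposited table holds estimated counts per gene, whole numbers without normalization, both annotations merged. Low values repeat at about 3.71 counts, taken here as 1 read pair. All 18 columns were matched to samples by name.

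Genes with a count sum of at least 180 were tested with edgeR 4.0.16 (R 4.3.3): TMM scaling, 1 fit of 6 groups and the quasi-likelihood F test, in 10 comparisons. SEs are the log2FC divided by the square root of F, and intervals are 95% intervals from them. The call limits are those of the study's methods. CPM of the likeness measure had a prior count of 2. limma 3.58.1 and DESeq2 1.42.0 served as alternatives, and tables and plots were made in Python 3.11.15 with matplotlib 3.10.9, numpy 2.4.6 and pandas 2.3.3. The fit was tested on simulated data. The other settings were the likelihood ratio test, robust estimation, DESeq2, limma-voom, a replicate block, only the groups compared, DESeq2 size factors, library size only, no filter, filterByExpr, an FDR limit of 0.05, no fold minimum, counts divided by their spacing, and the omission of each library.

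Libraries of equal replicate number were checked on 17616 genes of at least 5 CPM after removing group means. They correlated above 0.1 for each number between JA and mock in WT (r = 0.337, 0.376 and 0.287) and between oscoi1ab and WT under mock (0.47, 0.315 and 0.239), and not for each number in the other pairs of groups. The pairing in those 2 comparisons comes from the data alone, and the fit reported has no block.

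The members and gene lists were chosen with earlier results of these data known. All 9 members are named, as are the 2 genes most like each called member. Of other lists, at most 4 genes per list called in WT after JA with the largest change are named, and copies of members. OsPLT1 and OsGRF7 were named after their values were seen. LOC_Os01g60270, LOC_Os02g56130 and LOC_Os03g05500 were also given, though not called in WT after JA, as were the marker loci LOC_Os02g44310 and LOC_Os03g51690. Of 54 list genes, 11 carry a name in the study's tables, and the others were placed by locus identifier without an annotation to check them against. RefSeq (ASM3414082v1), another build than MSU7, matched 6 of the 9 members by name and was used for the OsSCR2 entry only. The authors' fold changes and the metabolite results were not used.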

Additional observations from a re-analysis of the deposited data

Results flagged for a closer look

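WOX11 is listed because its JA response differed between lines by a test of the difference itself. The log2FC of JA over mock in oscoi2 minus that in WT was -2.88 ± 0.48 (SE, edgeR's quasi-likelihood test, FDR = 0.00157), with a response of 1.80 in oscoi2 and 4.68 in WT. The same difference of oscoi2 minus oscoi1ab was -2.20 ± 0.48 (FDR = 0.00726), with a response of 4.0 in oscoi1ab. By limma-voom neither difference was called (FDR = 0.0174 against WT and 0.0421 against oscoi1ab). The call against oscoi1ab was also lost with library size only, and held in 7 of the 18 omissions of 1 library. The comparisons share the oscoi2 libraries, so they are not independent of each other. All 3 oscoi2 libraries after JA (1.82 to 3.25 CPM) lay below the 6 libraries of oscoi1ab and WT after JA (13.2 to 24.0 CPM). Groups of 3 libraries were too small to test single libraries as outliers.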

How the results depend on the processing

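No call of a regulator reversed in 13 other settings or 18 omissions of 1 library. Of 2480 values in these alternatives, 74 changed sign, and none of them was called. In the main fit none of these had a log2FC above 0.32 in size. Values in the alternatives went further, as OsGRF1 for oscoi1ab against WT after JA moved from -0.21 to 0.85 without 1 library. In all, 38 calls were lost and 17 gained. The number of called regulators was 2 to 4 for JA in WT, 0 to 1 for JA in oscoi2 and 0 to 1 for oscoi2 minus oscoi1ab when 1 library was left out. The interaction of oscoi2 minus WT had 0 called by limma-voom. That of oscoi2 minus oscoi1ab had 0 by limma-voom and by library size only, and 2 by DESeq2 and at an FDR under 0.05. OsGRF1 in oscoi1ab was -5.30 by limma-voom, where 1 JA library is at 0. The causes were not tested. With the replicate number as a block, no call of a regulator changed (4 for JA in WT, 3 in oscoi1ab and 1 in oscoi2), and 244 instead of 116 genes were called for oscoi2 against WT under mock.

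Over all genes the counts moved by more than 1.5 times: JA in oscoi2 gave 1378 calls (917 to 2708 over all alternatives), in oscoi1ab 4829 (4132 to 8146) and in WT 4342 (3556 to 7650). After JA, oscoi2 against WT gave 1213 (732 to 2356) and oscoi1ab against WT 50 (22 to 163). Under mock they gave 116 (24 to 407) and 50 (10 to 153). The interactions gave 908 (585 to 1619) for oscoi2 minus WT, 1042 (743 to 1835) for oscoi2 minus oscoi1ab and 0 (0 to 21) for oscoi1ab minus WT. Depth limits OsGRF1 after JA, with 0 to 104 estimated counts per library in oscoi1ab and WT, and CRL5, at 0 throughout. WOX11 under mock had 40 to 147 estimated counts per library, and the size of its rise rests on these low counts. With about 3.71 estimated counts taken as 1 read pair, the read pairs behind the counts of both genes are fewer still. With 3 libraries a group, values near the limits (OsWOX6 and OsGRF1 in WT, OsPLT4 in oscoi1ab) cannot be placed firmly on 1 side.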
